A study of Homo sapiens with 8 samples.

Results

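The 10 genes followed here belong to the ATF4 stress response and were measured in cells labelled as the U87 MG glioblastoma line: the regulators ATF4, DDIT3, CEBPB and ATF5, the feedback inhibitor TRIB3, and the induced genes CHAC1, ASNS, SESN2, DDIT4 and VLDLR. They were chosen by name, with earlier results of these data known. They are 10 of the 23228 genes in the files, and all 10 were among the 13915 genes with enough reads to be tested. The 8 libraries form 4 groups of 2: unmodified U87 cells (control), U87 cells in which estrogen receptor beta (ERβ, gene ESR2) was removed with CRISPR/Cas9 (ERb_KO), and those knockout cells with the ERβ1 isoform (ERb1) or the ERβ5 isoform (ERb5) put back. ERb1 and ERb5 cells therefore carry the knockout too. All cells grew in DMEM with 10% FBS. The labels do not give the number of clones or the vector and promoter of the isoforms, nor do they say that paired libraries are separate cultures, and the p-values measure the spread between these libraries only, which may be technical.

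ATF4 is the central transcription factor of the integrated stress response. Kinases that sense unfolded protein, amino acid shortage, double-stranded RNA or heme shortage phosphorylate the initiation factor eIF2, which lowers protein synthesis in general and raises translation of the ATF4 mRNA. ATF4 pairs with other basic leucine zipper (bZIP) proteins and turns on genes for amino acid uptake and synthesis, redox balance and, when stress lasts, cell death, and much of its control is on translation, which an mRNA level does not show.

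ESR2, the targeted gene, had 25 and 20 reads in the control libraries, 23 and 21 in the knockout pair, 6 and 18 in the ERb1 pair, and 7 and 10 in the ERb5 pair. Read counts of ESR2 did not separate ERb_KO from control (edgeR adjusted p = 0.932), and neither ERb1 nor ERb5 had more ESR2 reads than ERb_KO (adjusted p = 0.118 and 0.0761, both towards lower), so each direction below is that of the libraries labelled so. Counts per gene tell neither isoforms nor edited and unedited mRNA apart. Gene reads ran from 26760897 to 48076414 per library. All 8 luminal epithelial markers in a list of 8 reached at least 10 CPM (counts scaled to a common library size) in every library, with summed levels of 13000 to 13700 CPM in control, 11500 to 11800 in ERb_KO, 15700 to 16500 in ERb1 and 14800 to 15800 in ERb5. Of 10 glioma and astrocyte markers 4 reached that level, with sums of 267 to 275, 291 to 327, 218 to 238 and 221 to 223 CPM, while OLIG2 and POSTN had 0 reads and GFAP lay between 0.0459 and 0.136 CPM. The markers thus go against the label of the line, and the part of these levels in the results was not tested.

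Part of the family shares a DNA element, shown here for the members whose levels are described below. ATF4 with a C/EBP partner binds the C/EBP-ATF response element, of the form TGATGNAA. Windows from 1000 bases before to 500 bases after the annotated start (GENCODE, GRCh37 build, canonical transcript) were searched for these letters on both strands. Matches are printed 5′ to 3′ on the strand that holds the match, with the motif in capitals, and positions count from the first base of the canonical transcript to the first base of the match in the direction of the gene.

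DDIT3 (chr12:57914585-57914614, opposite strand to the gene, 306 bases before the start): gggggcggggaTGATGCAAtgtttggcaac
TRIB3 (chr20:361525-361554, opposite strand, 132 bases after the start): cccggtccgggTGATGCAAaccggagctaa
CHAC1 (chr15:41245449-41245478, opposite strand, 209 bases before): cctggcaggagTGATGCAAcggcaggggag
SESN2 (chr1:28585722-28585751, opposite strand, 296 bases before): ttagggttgcgTGATGAAAagggacttcac
ASNS (chr7:97501770-97501799, gene strand, 68 bases before): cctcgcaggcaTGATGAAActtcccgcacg
ASNS, second match (chr7:97502588-97502617, gene strand, 886 bases before): tatttcggtgcTGATGTAAttagtaaaata
DDIT4 (chr10:74032725-74032754, gene strand, 942 bases before): gtcctcggtccTGATGCAAccgtctggatc
VLDLR (chr9:2621338-2621367, opposite strand, 438 bases before): gcagttagcgcTGATGCAActatcgttgct

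TRIB3 held 3 copies of the same 30 bases, 132, 165 and 198 bases after its start. The motif letters occurred in 7 of the 10 windows (70.0%), against 2804 of 20098 windows of the same length around protein-coding starts (14.0%). Upstream of the start alone, 6 of 10 held them, against 11.4% of windows. No match was found in the windows of ATF4, CEBPB and ATF5, which says only that these letters are not there. The genes were chosen as part of the ATF4 response and the motif as the element that ATF4 binds. The higher share among them therefore follows from that choice and tests nothing. A match is a description of the sequence, and no binding was measured.

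**Figure D1:**
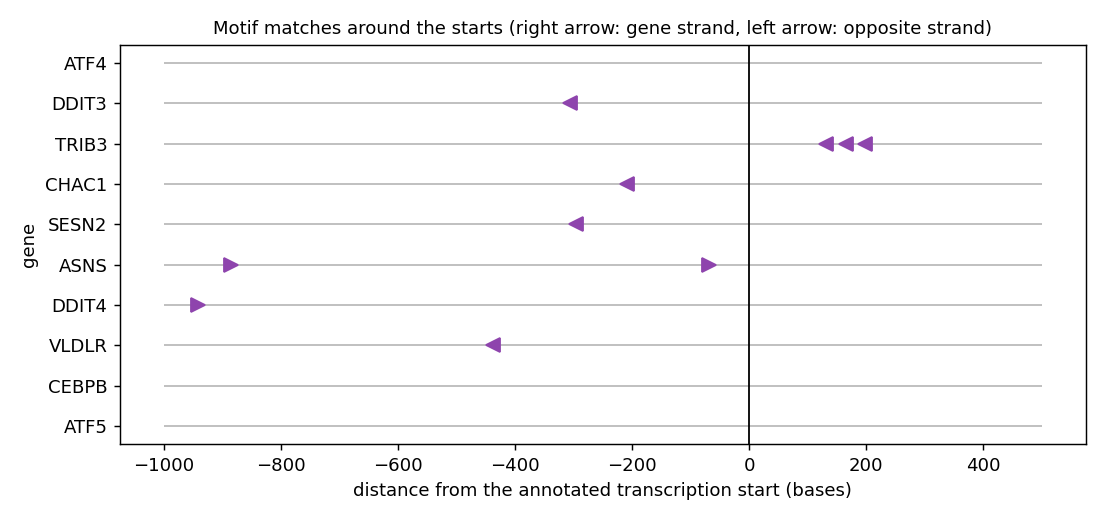
Position of each TGATGNAA match (arrowheads, pointing right on the gene strand and left on the opposite strand) in the window of each of the 10 genes, in bases from the annotated start (vertical line). The 3 copies of TRIB3 lie after the start, the nearest match of ASNS lies 68 bases before it, and 3 windows are empty.

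The clearest change in the family was in ASNS, asparagine synthetase, which makes asparagine from aspartate and glutamine (chr7:97480989-97501854 on GRCh37, minus strand). Control libraries had 384 and 364 CPM, ERb_KO libraries 583 and 608, ERb1 libraries 303 and 356, and ERb5 libraries 264 and 327 (scaled by TMM, as are all levels here). Both ERb_KO libraries stood above the libraries of all other groups. In bulk RNA, less RNA per cell and fewer cells with the RNA cannot be told apart. The mean of 595 ± 17.8 CPM (SD, n = 2) in ERb_KO was 1.59-fold that of control, 374 ± 14.2, or 0.67 ± 0.12 on the log2 scale (SE, adjusted p = 0.00535 by the edgeR quasi-likelihood test). ASNS was lower in ERb1 than in ERb_KO, with -0.85 ± 0.12 on the log2 scale (edgeR adjusted p = 0.000668) and in ERb5 by -1.01 ± 0.12 (adjusted p = 0.000468). Both falls stayed called whichever of the libraries concerned was left out, while the rise over control was 0.63 to 0.71 on the log2 scale with 1 library left out and missed the threshold without control replicate 2 (0.63, edgeR adjusted p = 0.0757). Against control itself, ERb1 and ERb5 did not pass the test (log2 changes -0.18 and -0.34, edgeR adjusted p = 0.443 and 0.0875). The value for ERb5 was -0.50 without ERb5 replicate 2 and -0.20 without ERb5 replicate 1.

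**Figure D2:**
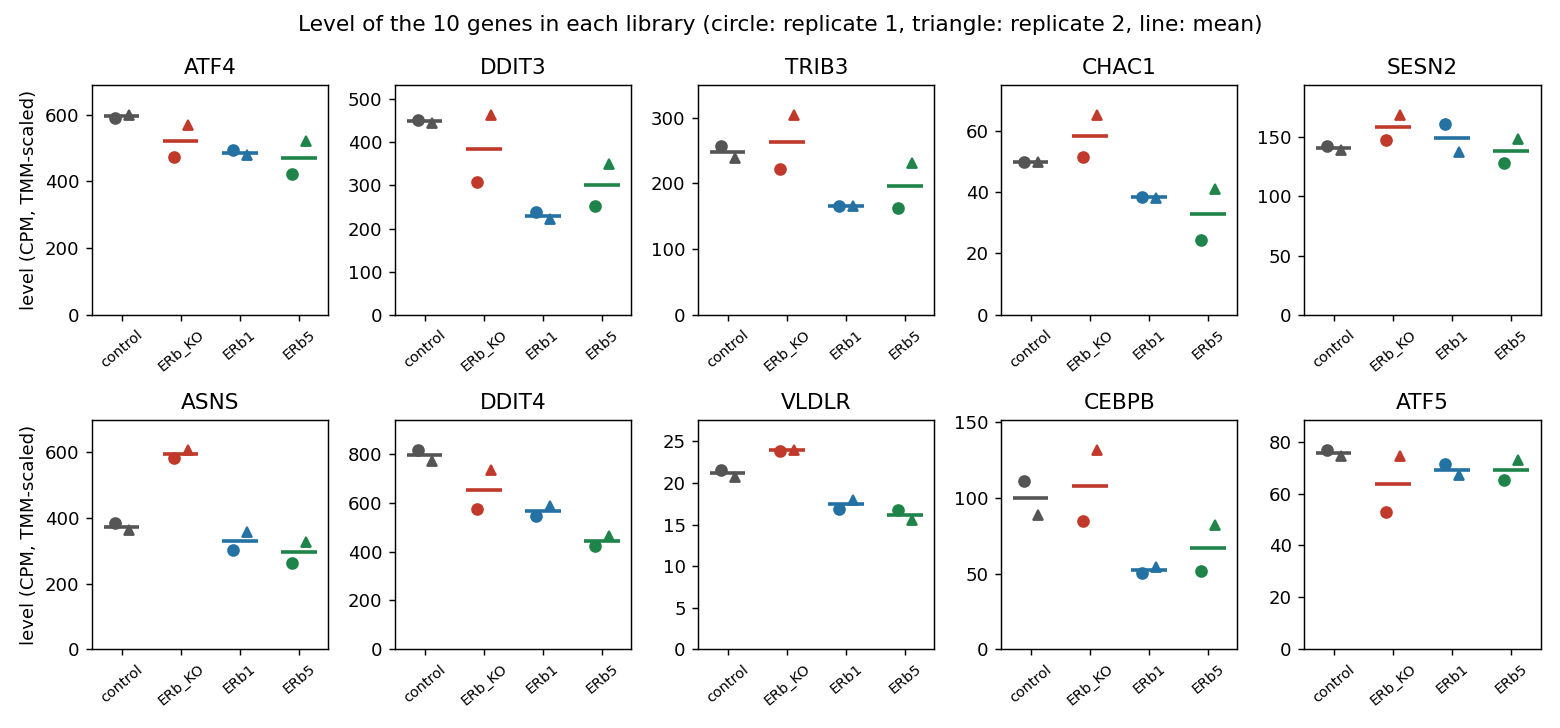
Level of each of the 10 genes in each library (vertical axis, TMM-scaled CPM from 0; circle, replicate 1; triangle, replicate 2; line, group mean). The ERb_KO libraries stand apart from all others for ASNS (583 and 608 CPM), while ATF5 and SESN2 overlap between most groups.

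Of the regulators, ATF4 itself (chr22:39915700-39918688) passed the test in no comparison. It was at 591 and 600 CPM in the control pair, 474 and 571 in the knockout pair, 495 and 479 in the ERb1 pair, and 422 and 522 in the ERb5 pair. Both control libraries were the highest, and the other groups overlapped. Its log2 changes were -0.19 ± 0.12 for the knockout over control, then -0.10 and -0.15 for ERb1 and ERb5 over the knockout (SE, edgeR adjusted p = 0.299, 0.568 and 0.381). Over control the changes were larger, -0.29 in ERb1 and -0.34 in ERb5 (edgeR adjusted p = 0.227 and 0.0979). The value for ERb5 was called without ERb5 replicate 2 (-0.50, edgeR adjusted p = 0.0275) and with the GC and length trend described below removed (-0.33, edgeR adjusted p = 0.0195), and was -0.19 without ERb5 replicate 1.

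DDIT3 (chr12:57910371-57915520) encodes CHOP, the bZIP factor that ATF4 induces and that is linked to cell death under lasting stress. Its levels were 453 and 446 CPM in the control pair, 307 and 464 in the knockout pair, 239 and 221 in the ERb1 pair, and 253 and 349 in the ERb5 pair. The ERb1 libraries lay below all others, and the ERb_KO pair spread so far that its range overlapped control and ERb5. DDIT3 fell by 0.74 ± 0.19 on the log2 scale in ERb1 against ERb_KO (SE, edgeR adjusted p = 0.0176), a call lost without ERb_KO replicate 2 (-0.42, edgeR adjusted p = 0.114), without ERb1 replicate 1 (0.0988) or without ERb1 replicate 2 (0.0826). ERb5 did not pass the test against ERb_KO (log2 change -0.36 ± 0.19, edgeR adjusted p = 0.172). That value was -0.03 without ERb_KO replicate 2 and -0.15 without ERb5 replicate 1, and it was -0.63 without ERb_KO replicate 1, where it was called (edgeR adjusted p = 0.0343), and -0.62 without ERb5 replicate 2. DDIT3 was also lower in ERb1 than in control, by a log2 change of -0.96 ± 0.19 (edgeR adjusted p = 0.0191). With any 1 of the 4 libraries left out the change stayed between -1.02 and -0.91, and the adjusted p no longer passed (0.0923 to 0.147, edgeR).

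CEBPB (chr20:48807367-48809205), a C/EBP factor that can pair with ATF4, had 111 and 89.0 CPM in the control pair, 84.6 and 132 in the knockout pair, 50.2 and 54.5 in the ERb1 pair, and 52.0 and 82.3 in the ERb5 pair. Both ERb1 libraries were below every control and ERb_KO library. The fall in ERb1 against ERb_KO was 1.05 ± 0.25 on the log2 scale (SE, edgeR adjusted p = 0.0157), and was not called without ERb_KO replicate 2 (-0.69, edgeR adjusted p = 0.077), without ERb1 replicate 1 (0.144) or without ERb1 replicate 2 (0.0655). In ERb5, -0.69 ± 0.25 on that scale had an edgeR adjusted p of 0.0625. It ran from -0.34 without ERb_KO replicate 2 and -0.40 without ERb5 replicate 1 to -0.98 without ERb_KO replicate 1 and -1.07 without ERb5 replicate 2, and was called in the last pair (edgeR adjusted p = 0.0289 and 0.0332). CEBPB has the highest GC content of the 10 transcripts, 66.2%, and ASNS and VLDLR have the lowest, 42.7% and 42.8%.

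ATF5 (chr19:50431959-50437192), a bZIP factor controlled at translation like ATF4, did not pass the test in any of the 6 comparisons. Its levels were 76.9 and 74.3 CPM in the control pair, 52.9 and 74.6 in the knockout pair, 71.3 and 67.0 in the ERb1 pair, and 65.3 and 73.0 in the ERb5 pair. ERb_KO replicate 1 was the lowest, and the other libraries lay between 65.3 and 76.9 CPM. For ERb_KO against control the log2 change of ATF5 was -0.25 ± 0.14 (SE, edgeR adjusted p = 0.236). It was -0.51 without ERb_KO replicate 2 and -0.02 without ERb_KO replicate 1. Both control libraries of ATF5 lay above both libraries of ERb1 and of ERb5, and the other groups overlapped. The group means were 75.6 ± 1.85, 63.7 ± 15.3, 69.2 ± 3.07 and 69.2 ± 5.41 CPM (SD, n = 2).

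TRIB3 (chr20:343479-378203), a pseudokinase induced by ATF4 and CHOP that inhibits ATF4 in turn, had 257 and 239 CPM in the control pair, 221 and 304 in the knockout pair, 166 and 166 in the ERb1 pair, and 162 and 231 in the ERb5 pair. The ERb1 libraries lay below both control and both ERb_KO libraries, and ERb5 overlapped ERb_KO. Against ERb_KO, TRIB3 fell in ERb1 by 0.66 ± 0.17 on the log2 scale (SE, edgeR adjusted p = 0.0183). The call did not hold without ERb_KO replicate 2 (-0.42, edgeR adjusted p = 0.132), without ERb1 replicate 1 (0.12) or without ERb1 replicate 2 (0.0668). ERb5 differed from it by -0.42 ± 0.17 on that scale (edgeR adjusted p = 0.0875). This value was -0.17 without ERb_KO replicate 2 and -0.19 without ERb5 replicate 1, and was called at -0.63 without ERb_KO replicate 1 and -0.70 without ERb5 replicate 2 (edgeR adjusted p = 0.0391 and 0.0183).

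CHAC1 (chr15:41245160-41248710), an enzyme that breaks down glutathione, had 49.9 and 49.8 CPM in the control pair, 51.4 and 65.2 in the knockout pair, 38.4 and 38.1 in the ERb1 pair, and 24.3 and 41.1 in the ERb5 pair. All 4 isoform libraries were below all 4 others. It fell in ERb5 against ERb_KO by 0.84 ± 0.20 on the log2 scale (SE, edgeR adjusted p = 0.0147). The call was missed without ERb_KO replicate 2 (-0.66, edgeR adjusted p = 0.0847), and the value was -0.51 without ERb5 replicate 1 and -1.27 without ERb5 replicate 2. The value for ERb1, -0.61 ± 0.20 on that scale, just missed the threshold (edgeR adjusted p = 0.0501).

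SESN2 and DDIT4 restrain the growth kinase mTORC1. SESN2 (chr1:28586029-28609002), a leucine sensor, passed the test in no comparison: it was at 143 and 139 CPM in the control pair, 148 and 169 in the knockout pair, 161 and 138 in the ERb1 pair, and 128 and 149 in the ERb5 pair. The ERb_KO range of SESN2 overlapped those of ERb1 and ERb5, and lay above that of control. DDIT4 (chr10:74033678-74035794), also known as REDD1, was at 817 and 772 CPM in the control pair, 574 and 733 in the knockout pair, 545 and 587 in the ERb1 pair, and 423 and 465 in the ERb5 pair. Control libraries were highest and ERb5 libraries lowest, with ERb_KO and ERb1 overlapping between them. DDIT4 fell in ERb5 against ERb_KO by 0.56 ± 0.12 on the log2 scale (SE, edgeR adjusted p = 0.00862), a call lost without ERb_KO replicate 2 (-0.37, edgeR adjusted p = 0.0641). It was lower in ERb5 than in control by a log2 change of -0.84 ± 0.12 (edgeR adjusted p = 0.00109), and that stayed called without each of the 4 libraries in turn. In ERb1 against control the log2 change was -0.49 ± 0.12 (edgeR adjusted p = 0.0468). With any 1 of the 4 libraries left out the change stayed between -0.55 and -0.44, and the adjusted p no longer passed (0.12 to 0.392, edgeR). For ERb_KO against control DDIT4 was not called (-0.28 ± 0.12, edgeR adjusted p = 0.123), except without ERb_KO replicate 2 (-0.47, edgeR adjusted p = 0.038).

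VLDLR (chr9:2621182-2660056), a receptor for lipoproteins and reelin, had 21.6 and 20.7 CPM in the control pair, 23.8 and 24.0 in the knockout pair, 16.9 and 18.0 in the ERb1 pair, and 16.7 and 15.6 in the ERb5 pair. The libraries of either isoform lay below all control and ERb_KO libraries. VLDLR fell in ERb1 by 0.45 ± 0.12 (SE, log2, edgeR adjusted p = 0.0161) and in ERb5 by 0.56 ± 0.12 (edgeR adjusted p = 0.00701), both against ERb_KO. The fall in ERb5 was called without each library in turn, and that in ERb1 was lost without ERb_KO replicate 1, ERb_KO replicate 2 or ERb1 replicate 1 (edgeR adjusted p = 0.0629, 0.0635 and 0.089). Against control, ERb5 was lower by a log2 change of -0.39 ± 0.12 (edgeR adjusted p = 0.0496). With any 1 of the 4 libraries left out this change stayed between -0.44 and -0.34, and the adjusted p no longer passed (0.0645 to 0.322, edgeR).

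Levels between genes can be set side by side only per length. As group means per kilobase of canonical transcript, DDIT3, DDIT4 and ATF4 were the 3 highest in control (498, 455 and 420 CPM per kb) and VLDLR the lowest (2.3 CPM per kb). The spread over the 8 libraries was widest for CHAC1 and CEBPB, where the highest library was 2.69-fold and 2.64-fold the lowest. ASNS had 250 CPM per kb in ERb_KO and 124 in ERb5. ASNS overlaps ENSG00000226744 on the opposite strand and ENSG00000284707 on its own, DDIT3 overlaps MARS1 and MBD6 on the opposite strand, ATF5 overlaps IL4I1 and NUP62, and VLDLR and CEBPB have antisense genes, and without a stated strand setting these reads cannot be told apart.

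Counted over the family, ERb_KO against control had 1 of 10 genes called higher (ASNS) and 0 lower, beside 8.98% of all tested genes higher and 8.52% lower, with a median log2 change of 0.10 for the 10 and 0.01 for all genes. ERb1 against ERb_KO had 5 of 10 lower (CEBPB, ASNS, DDIT3, TRIB3 and VLDLR) and 0 higher, beside 12.5% of all genes lower and 12.4% higher, and medians of -0.53 and 0.00. ERb5 against ERb_KO had 4 of 10 lower (ASNS, CHAC1, VLDLR and DDIT4) and 0 higher, beside 13.5% lower and 14.7% higher, with medians of -0.49 and 0.01. Both comparisons use the same 2 ERb_KO libraries. The count for ERb1 was 1 without ERb_KO replicate 2, 1 without ERb1 replicate 1 and 2 without ERb1 replicate 2. For ERb5 it was 2 without ERb_KO replicate 2 and 7 without ERb_KO replicate 1. Against control, ERb1 had 2 of 10 lower (DDIT3 and DDIT4, with 2.7% of all genes lower) and ERb5 had 2 of 10 lower (DDIT4 and VLDLR, with 6.31% lower). The count for ERb1 against control was 0 without any 1 of the 4 libraries, and that for ERb5 was 1 without control replicate 1, control replicate 2 or ERb5 replicate 1 and 6 without ERb5 replicate 2.

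ERb5 against ERb1 tested the isoforms against each other, and edgeR called none of the 10 genes, with 4.66% of all genes called (3.49% higher, 1.18% lower). At an unadjusted p under 0.05 the count was 1 of 10, beside 18.2% of all tested genes. The gene was DDIT4, at -0.35 ± 0.12 on the log2 scale (SE, edgeR adjusted p = 0.145), and DESeq2 also called 0. CEBPB differed by 0.36 ± 0.25 and DDIT3 by 0.39 ± 0.19 on the log2 scale, in each case higher in ERb5 (edgeR adjusted p = 0.498 and 0.313). These values do not show that the isoforms act alike.

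Libraries differed in the dependence of levels on the GC content of transcripts. The correlation of centred level with GC across genes was -0.56 and -0.461 in the ERb_KO libraries, against 0.127 and 0.194 in the control pair, 0.351 and -0.138 in ERb1, and 0.118 and 0.339 in the ERb5 pair. With the trend over GC and length removed within each library, ERb1 against ERb_KO had 8 of 10 genes lower (12.3% of all genes lower), all but ATF4 and ATF5, and ERb5 against ERb_KO had 8 of 10 lower (9.62%), all but DDIT3 and ATF5. In ERb_KO against control 3 were then higher, CHAC1, SESN2 and ASNS (6.03% of all genes higher). CHAC1 had a log2 change of 0.54 ± 0.13 there (SE, edgeR adjusted p = 0.0307), and ASNS 0.53 ± 0.10 (adjusted p = 0.00985). In ERb5 against ERb1, DDIT4 alone was lower (-0.40 ± 0.10, edgeR adjusted p = 0.0357, with 3.38% of all genes lower). Against control, 4 were lower in ERb1 (5.44% of genes) and 7 in ERb5 (11% of genes). ASNS stayed called in all 3 comparisons in which it was called without this step. The falls of ASNS and VLDLR, lowest in GC, were smaller after it. ASNS was at -0.70 in ERb1 and -0.82 in ERb5 against ERb_KO, and VLDLR at -0.29 and -0.41. The values of all the other members in these 2 comparisons moved down. VLDLR in ERb_KO against control went from 0.18 to 0.01.

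**Figure D3:**
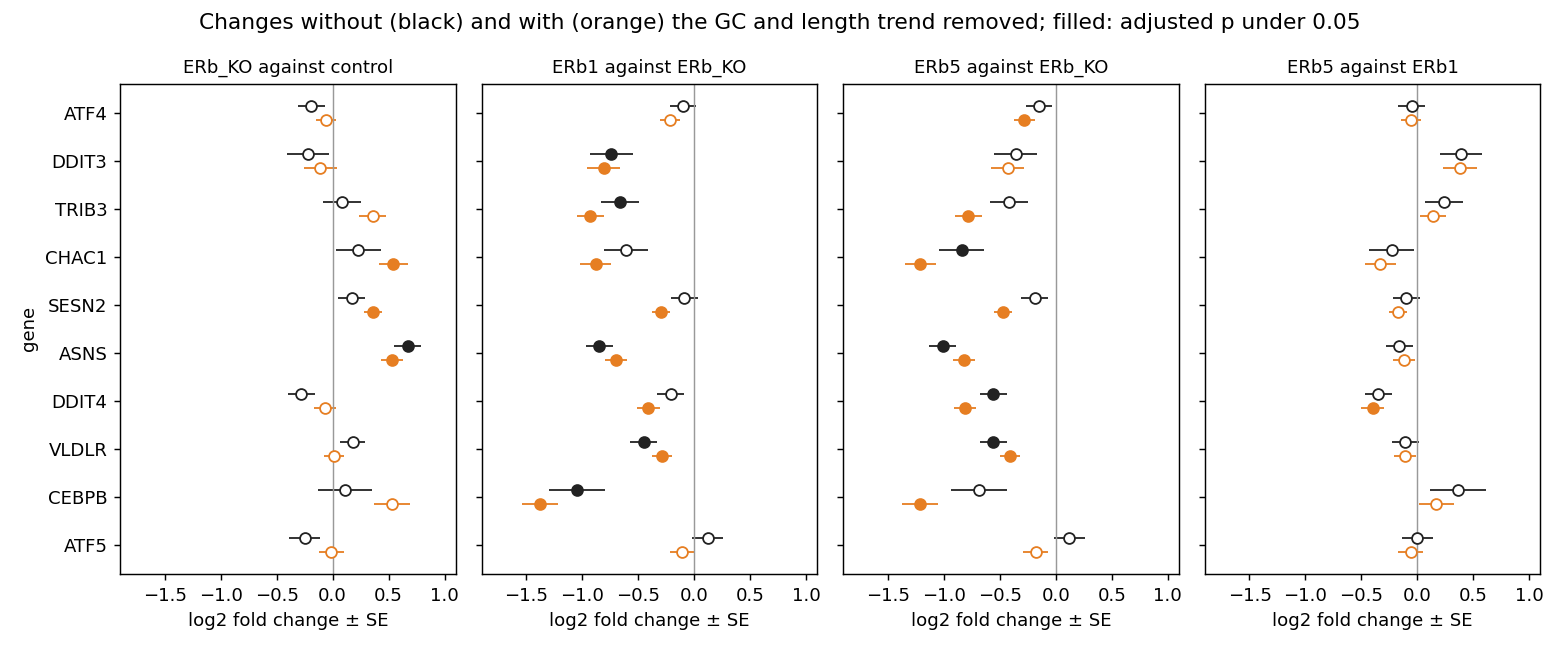
Log2 fold change (horizontal axis, bars are ± 1 SE) of each gene in 4 comparisons, without (black) and with (orange) the GC and length trend removed, filled where the edgeR adjusted p was under 0.05. Points for ERb1 and ERb5 against ERb_KO lie mostly left of 0, with 5 and 4 filled in black and 8 and 8 in orange, and no black point is filled for ERb5 against ERb1.

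The 2 libraries of a group also differed across the family. In ERb_KO all 10 genes were higher in replicate 2 than in replicate 1, with a median log2 difference of 0.35, against 51.7% of all tested genes, and in ERb5 9 of 10 were, with a median of 0.31, against 50.1%. Control had 1 of 10 and ERb1 5 of 10. With the GC and length trend removed the counts were 10 in ERb_KO (median 0.19) and 8 in ERb5 (0.23). CEBPB and DDIT3 had wide spreads within ERb_KO, 108 ± 33.7 and 386 ± 111 CPM (SD, n = 2), while ASNS and VLDLR had narrow ones, 595 ± 17.8 and 23.9 ± 0.113.

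**Figure D4:**
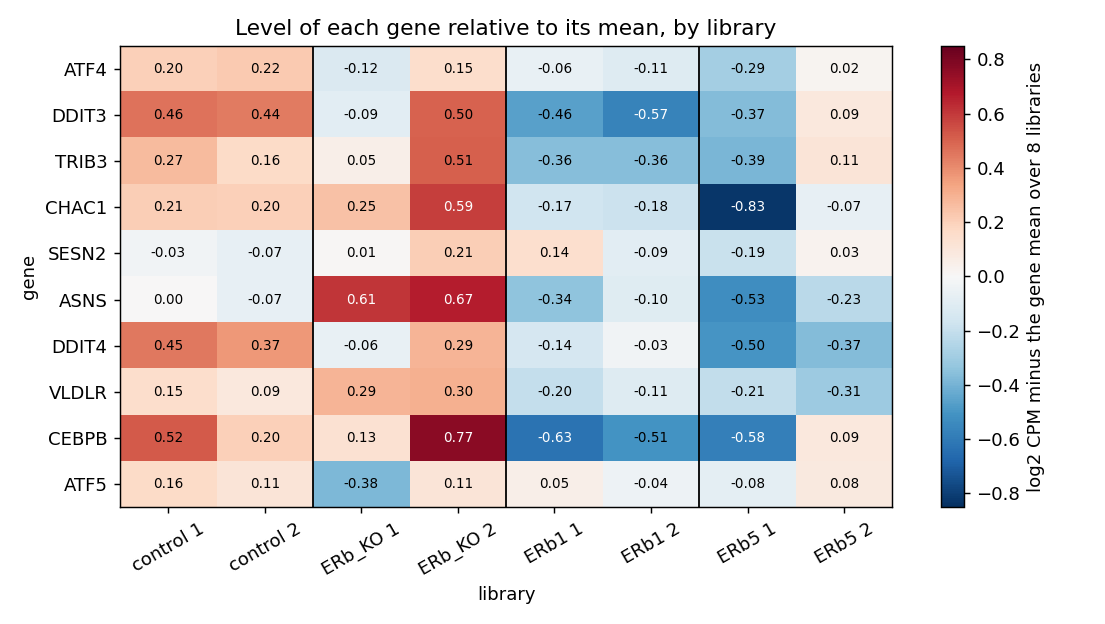
Log2 CPM of each gene minus its mean over the 8 libraries, by library (colour and printed value, blue below and red above the mean). ERb_KO replicate 2 is above the mean for all 10 genes (0.11 to 0.77), and both ERb1 libraries are below it for ATF4, DDIT3, TRIB3, CHAC1, ASNS, DDIT4, VLDLR and CEBPB.

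The genes most like the members over the 8 libraries were found by the root mean square difference of centred log2 levels among 10580 other genes, a description with no test, since the points share libraries. TRIB3 was nearest to WARS (0.072), IFRD1 (0.079) and EIF4EBP1 (0.097), and among the 10 to DDIT3 (0.155). ASNS was nearest to ARHGAP19 (0.083), NMD3 (0.092) and ALDH1L2 (0.118), and DDIT3 to PRR15 (0.092). ATF4, which varied least between its highest and lowest library except SESN2 (log2 ranges of 0.51 and 0.40), was nearest to GFER (0.036).

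Further genes of the pathway were taken from lists. Counts and changes of the lists are given without the GC and length trend removed. Amino acid supply genes (transporters, serine and one-carbon enzymes, 24 tested) had 6 higher and 1 lower in ERb_KO against control, 0 higher and 15 lower in ERb1 against ERb_KO, and 0 higher and 18 lower in ERb5 against ERb_KO, where 8.98%, 12.4% and 14.7% of all genes were higher and 8.52%, 12.5% and 13.5% lower. Their median log2 changes were 0.18, -0.37 and -0.48, against 0.01, 0.00 and 0.01 for all genes. Against control 0 were higher and 4 lower in ERb1 (median -0.30), and 0 higher and 14 lower in ERb5 (median -0.43). Of all genes, 2.7% and 6.31% were lower in these 2 comparisons. SLC7A11, the cystine importer, went from 95.0 ± 4.74 CPM in control to 257 ± 1.17 in ERb_KO (log2 change 1.44 ± 0.14, edgeR adjusted p = 0.000221) and was at 99.5 ± 23.6 in ERb1 and 129 ± 2.64 in ERb5. MTHFD2, a mitochondrial folate enzyme, went from 431 ± 75.3 in ERb_KO to 232 ± 40.5 in ERb1 and 183 ± 11.6 in ERb5 (log2 changes -0.89 and -1.23, edgeR adjusted p = 0.00141 and 0.000412). The count for ERb1 was 7 without ERb_KO replicate 2 and 6 without ERb1 replicate 1, while that for ERb5 ran from 13 to 17 over the libraries left out. For ERb_KO against control the 7 genes called in either direction became 2 and 1 without control replicate 1 and 2, and 3 and 4 without ERb_KO replicate 1 and 2.

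Beside the next 2 lists, 8.98% of all genes were higher and 8.52% lower in ERb_KO against control. These shares were 12.4% and 12.5% in ERb1 against ERb_KO, and 14.7% and 13.5% in ERb5 against ERb_KO. Cytosolic aminoacyl-tRNA synthetases (20 tested), which load amino acids onto tRNAs, had 1 higher and 10 lower in ERb1 against ERb_KO, and 2 higher and 11 lower in ERb5 against ERb_KO. In ERb_KO against control 2 were higher and 3 lower (QARS, VARS and FARSA), a count of 0 to 2 in either direction with 1 library left out. SARS, the seryl enzyme, went from 670 ± 21.1 CPM in ERb_KO to 421 ± 2.69 in ERb1 and 365 ± 18.8 in ERb5. For ERb1 the count called in either direction, 11, was 6 without ERb_KO replicate 1 and 5 without ERb1 replicate 1. Other stress targets of ATF4 and CHOP (24 tested) had 0 higher and 15 lower in ERb1, and 2 higher and 14 lower in ERb5, against ERb_KO. In either direction these were 15 and 16, and 8 and 7 without ERb_KO replicate 2, and that for ERb1 was 7 without ERb1 replicate 1. FAM129A went from 157 ± 12.5 to 73.1 ± 5.17 CPM in ERb1 and 59.8 ± 8.25 in ERb5, while TXNIP, which inhibits thioredoxin, did not move one way. It was at 4.7 ± 0.382 CPM in control and 27.2 ± 10.1 in ERb_KO, against 14.3 ± 1.11 with ERb1 and 59.2 ± 18.3 with ERb5 put back, and was called higher in ERb_KO over control, lower in ERb1 and higher in ERb5 over ERb_KO (log2 changes 2.54, -0.93 and 1.11, edgeR adjusted p = 0.000996, 0.0292 and 0.0126). Over control this list had 5 higher and 0 lower in ERb_KO, a count of 1 or 2 with any 1 library left out.

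The other branches of the unfolded protein response act through ATF6 and XBP1. Of all genes, 8.98% were higher and 8.52% lower in ERb_KO against control. These shares were 12.4% and 12.5% in ERb1 against ERb_KO, and 14.7% and 13.5% in ERb5 against ERb_KO. Chaperones and other ATF6 and XBP1 targets (19 tested) had 0 higher and 10 lower in ERb1 against control (median log2 change -0.57). In ERb5 against control 0 were higher and 15 lower (median -0.76). Of all genes, 2.7% and 6.31% were lower in these comparisons. In ERb_KO against control 0 were higher and 11 lower, with a median log2 change of -0.60. HSP90B1, an endoplasmic reticulum chaperone, went from 3820 ± 14.5 CPM to 1700 ± 145 (log2 change -1.17 ± 0.11, edgeR adjusted p = 0.00026). That count was 5 without control replicate 2 and 7 without ERb_KO replicate 1. In ERb1 against ERb_KO 4 rose and 0 fell, and 1 was called without ERb1 replicate 1, and in ERb5 against ERb_KO 0 rose and 4 fell, a count between 0 (without ERb5 replicate 2) and 7 (without ERb_KO replicate 1 or ERb5 replicate 1) and of 2 without ERb_KO replicate 2.

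**Figure D5:**
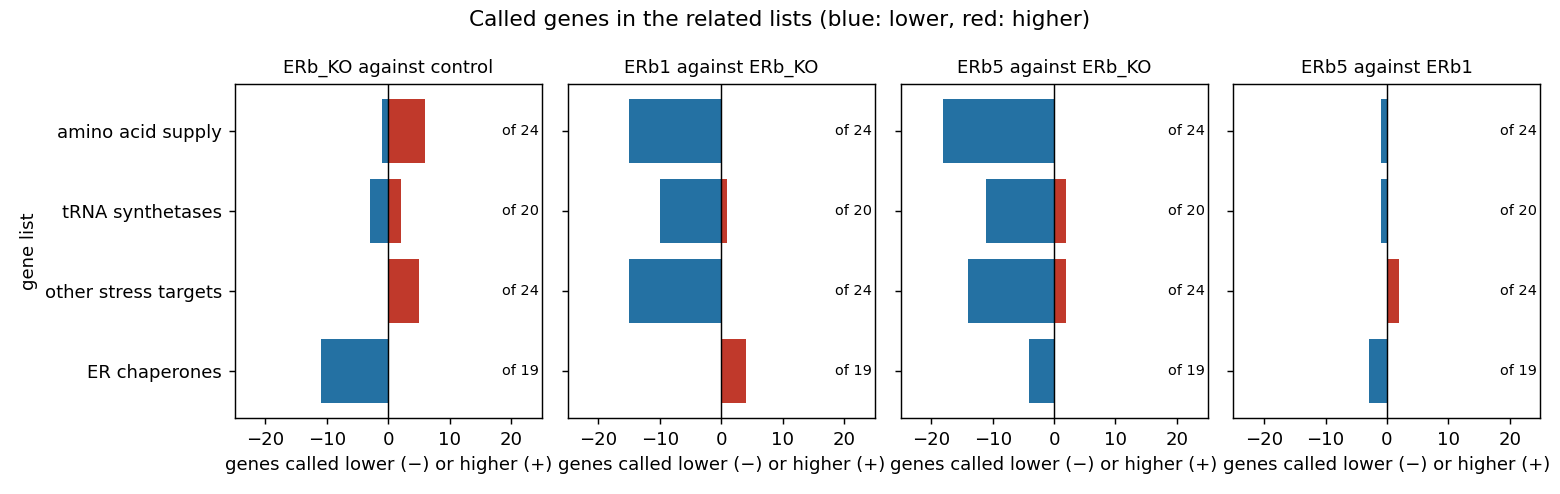
Number of genes called higher (red, positive) or lower (blue, negative) in 4 lists, in 4 comparisons, with the number tested at the right of each bar. Bars for amino acid supply reach 15 and 18 lower in ERb1 and ERb5 against ERb_KO, and that of the chaperones reaches 11 lower in ERb_KO against control.

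Upstream of ATF4, the list of eIF2 kinases, eIF2 subunits and the phosphatase (20 tested) had 1 gene higher and 0 lower in ERb_KO against control, 0 higher and 5 lower in ERb1 against ERb_KO, and 0 higher and 8 lower in ERb5 against ERb_KO. Of all genes 8.98%, 12.4% and 14.7% were higher and 8.52%, 12.5% and 13.5% lower in these comparisons. Counts of this list, and of the bZIP, p53, hypoxia and mTORC1 lists below, were not recomputed with libraries left out. The 1 gene higher over control did not exceed the share of all genes. EIF2AK2, the double-stranded RNA kinase PKR, was that 1 gene, at 63.5 ± 5.13 CPM in control and 207 ± 42.1 in ERb_KO (log2 change 1.71 ± 0.14, edgeR adjusted p = 6.92e-05). It was at 76.3 ± 7.51 in ERb1 and 222 ± 13.2 in ERb5, and the difference between the isoforms was called (log2 change 1.54 ± 0.14, edgeR adjusted p = 0.000172). EIF2AK3, the PERK kinase of the endoplasmic reticulum, was at 65.0 ± 0.754 in ERb_KO and 50.0 ± 5.24 in ERb1 (log2 change -0.38 ± 0.12, edgeR adjusted p = 0.0367), and was also called lower in ERb5 than in ERb_KO (-0.39 ± 0.12, edgeR adjusted p = 0.0306).

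Among bZIP partners of ATF4 (24 tested), 6 rose and 2 fell in ERb_KO against control, 3 rose and 10 fell in ERb1 against ERb_KO, and 4 rose and 3 fell in ERb5 against ERb_KO. In ERb_KO against control 8.98% of all genes rose and 8.52% fell. The share of all genes that rose was 12.4% in ERb1 and 14.7% in ERb5 and that of genes that fell 12.5% and 13.5%, so the counts of rises in both and of falls in ERb5 lay near the background. CEBPG, which pairs with ATF4, went from 124 ± 24.7 CPM in ERb_KO to 59.9 ± 10.7 in ERb1 (log2 change -1.05 ± 0.15, edgeR adjusted p = 0.000784) and 63.3 ± 6.48 in ERb5 (-0.97 ± 0.15, adjusted p = 0.00204). ATF3, an early stress factor, went from 71.4 ± 19.7 to 37.7 ± 0.989 in ERb1 (-0.92 ± 0.20, edgeR adjusted p = 0.00772). It was not called in ERb5 against ERb_KO (-0.31 ± 0.19, edgeR adjusted p = 0.253). Among the partners that rose over ERb_KO, BATF2 went from 17.5 ± 3.96 to 66.4 ± 47.2 CPM in ERb5 (1.92 ± 0.42, edgeR adjusted p = 0.0119). JUNB rose in ERb5 (0.79 ± 0.18, edgeR adjusted p = 0.00988) and FOS in ERb1 (0.75 ± 0.11, edgeR adjusted p = 0.00109). The motif letters were in 16 of 25 windows of the amino acid supply list (64.0%), 9 of 16 of the tRNA synthetases that could be matched to a start (56.2%), 11 of 25 of the other stress targets and 1 of 20 of the chaperones (5.0%), against 14.0% of all windows. Lists of ATF4 targets were chosen as such, so their higher shares test nothing. Of the lists of other stress programmes, p53 targets (20 tested) had 1 gene higher and 1 lower in ERb1 against ERb_KO, hypoxia targets (19 tested) 1 and 2, and mTORC1 nutrient sensing (19 tested) 4 and 3. In ERb5 against ERb_KO the same lists had 1 and 6, 2 and 2, and 1 and 2. Most of these counts lay near or below the shares of all genes given above. The 6 p53 targets lower in ERb5 and the 4 mTORC1 genes higher in ERb1 lay above them. Against control, in ERb_KO, ERb1 and ERb5 in turn, hypoxia targets had 0, 0 and 0 higher and 4, 5 and 5 lower. The p53 targets had 2, 1 and 1 higher and 2, 0 and 3 lower. For mTORC1 genes these were 2, 0 and 0 higher and 2, 0 and 0 lower. Of all genes 8.98%, 1.36% and 6.85% were higher there, and 8.52%, 2.7% and 6.31% lower.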

How the data were processed

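Libraries from total RNA of 8 samples (4 groups of 2) gave single-end reads of 50 bases. The files as deposited hold raw counts of reads for each gene. Per the submitters' processing notes, reads were converted with bcl2fastq, aligned to hg19 with TopHat2 2.0.8b and counted with HTSeq. Which HTSeq version, strand setting and annotation were used is not given in these sources. Each table lists 23228 genes and 5 entries that name no gene, which were set aside. Genes took 52.5 to 57.1% of the counted reads, while 34.7 to 39.9% were not unique, 7.01 to 7.79% lay outside genes and 0.54 to 0.561% were ambiguous, so genes with near-identical copies are uncertain. Counts of libraries of a group differed by more than sampling noise in every group (chi-square per degree of freedom 7.84 to 43.39).

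From these counts, edgeR 4.0.16 in R 4.3.3 (limma 3.58.1) was run with filterByExpr (minimum count 10, minimum total 15), TMM scaling and the robust quasi-likelihood F test on all 8 libraries, which left 13915 genes (common biological coefficient of variation 0.102). P-values were adjusted by Benjamini-Hochberg over those genes, and called at under 0.05. SE equals the log2 change over the root of F. Levels are CPM on TMM-scaled library sizes. Lengths, GC content and positions come from GENCODE on GRCh37, the build of hg19, and 95.2% of tested genes matched. The GC and length trend was removed per library by lowess (span 0.3). Alternatives were other size factors, filters, DESeq2 1.42.0, only the groups compared, a replicate block, the trend removed, and each library left out, where a lone library is assumed to vary like the other groups. The fit was tested on data simulated for ERb_KO against control, with the same dispersion for every gene and no GC trend. It therefore cannot show how the p-values behave under the trend and spread seen here. The members, 11 gene lists, named genes (of each list up to 4 called genes per comparison by size of change, with a mean of at least 5 CPM in the higher group and groups that did not overlap, and for ATF4, DDIT3, TRIB3 and ASNS the 3 nearest genes by profile, from which the text draws) and tests were chosen with earlier results of these data known. The list counts under alternatives were added after seeing the data.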

Additional observations from a re-analysis of the deposited data

How the results depend on the processing

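Each of the 60 log2 changes of the 10 genes was recomputed under 12 alternatives, giving 720 values, of which 583 kept their direction and side of the threshold, 32 lost the call, 78 gained one and 27 changed sign. Changes of sign were all in values that were not called. With 1 library left out, those values ran, in ERb_KO against control, from -0.55 to 0.05 for DDIT3 (highest without ERb_KO replicate 1), -0.16 to 0.30 for TRIB3 and -0.24 to 0.40 for CEBPB (each lowest without ERb_KO replicate 2). In ERb1 against ERb_KO they ran from -0.23 to 0.04 for ATF4, -0.20 to 0.02 for SESN2 and -0.11 to 0.38 for ATF5, and in ERb5 against ERb_KO from -0.11 to 0.38 for ATF5. ATF5 was also -0.11 and -0.18 there with the trend removed, and -0.11 and -0.17 with the replicate block added. In ERb5 against ERb1 the ranges were -0.21 to 0.10 for ATF4, -0.03 to 0.48 for TRIB3, -0.66 to 0.10 for CHAC1, -0.22 to 0.01 for SESN2, -0.01 to 0.65 for CEBPB and -0.08 to 0.08 for ATF5, which was also -0.01 with no filter, 0.00 with the replicate block and -0.06 with the trend removed, with or without the block. SESN2 ran from -0.04 to 0.19 in ERb1 against control and from -0.14 to 0.08 in ERb5 against control.

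Called members, with 1 library left out, were 0 to 3 in ERb_KO against control, 1 to 4 in ERb1 and 2 to 7 in ERb5 against ERb_KO, 0 to 1 in ERb5 against ERb1, and 0 and 1 to 6 in ERb1 and ERb5 against control. With the trend removed they were 3, 8, 8, 1, 4 and 7 in that order, and 3, 8, 8, 1, 4 and 8 with the block added. With no filter they were 7 in ERb5 against ERb_KO, 2 in ERb5 against ERb1, 5 in ERb1 against control and 7 in ERb5 against control, and 6 in ERb1 against control from only those groups. All tested genes called were, in the same order, 2434, 3466, 3922, 649, 565 and 1831, and with 1 library left out 237 to 1480, 1198 to 3773, 1674 to 4378, 125 to 1389, 128 to 235 and 587 to 2143. They were 1592 (ERb_KO against control), 2419 (ERb5 against ERb_KO), 1180 (ERb5 against ERb1), 1325 and 2928 (ERb1 and ERb5 against control) with the trend removed, and 2584, 1289, 1501 and 3134 in the last 4 with the block added. From only the groups compared they were 4351, 421 and 1107 in ERb_KO against control, ERb5 against ERb1 and ERb1 against control. With no filter ERb5 against ERb1 had 1375 and ERb1 against control 1384, and DESeq2 gave 853 there. The share called higher in ERb5 against ERb1 was 74.7%, 60.1% with the trend removed, and 33.5% in ERb1 against control against 46.8% with no filter. The cause was not tested.

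The labels do not say that replicate numbers mark a shared batch, and same-numbered libraries deviated together with correlations from -0.12 to 0.139. With the replicate block the called members were 1, 6, 5, 0, 3 and 3. Depth bounds the precision of VLDLR most, with 425 to 1038 reads per library, and CHAC1 had 845 to 2242.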
